A study of Mus musculus with 6 samples.

Results

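The wide peaks described here are the 554 target peaks of at least 100 nt, out of 3292 peaks in a single list of RNA regions recovered with AGO2 from mouse embryonic stem cells. They were chosen from the deposited peak list by width alone, taken as the end minus the start of each peak, and make up 16.8% of it (exact 95% Clopper-Pearson interval 15.6 to 18.2). The other 2738 peaks, all under 100 nt, are called narrower peaks. The cells carried the Spy3-Ago2 genotype and were grown on gelatin with serum and LIF, a cytokine that holds such cells in the undifferentiated state. Every library came from this genotype, and no untagged control was analysed here. Target RNA was taken from the Spy3-AGO2 pull-down in 2 libraries and whole-lysate RNA in 2 input libraries, while 2 miRNA libraries were not used here. The list holds the target peaks of the whole series and has no value per library, so no spread between replicates can be given for a peak.

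AGO2 is the Argonaute protein that carries a microRNA and is guided by it to partly complementary messenger RNAs. Functional target sites in mammals lie mostly in the 3' untranslated region, the stretch after the stop codon at the downstream end of a transcript, although AGO2 also contacts coding sequence. In embryonic stem cells, some microRNAs are known for keeping the cell cycle short and for holding back genes of differentiation. A single site is a short stretch, and a wide peak is a longer stretch of RNA reported as 1 interval, which may hold 1 or several sites. Neither the bases under the peaks nor the number of reads per peak was used here.

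Most wide peaks were only moderately above the limit. Their median width was 128 nt with quartiles of 112 and 157 nt, against a median of 53 nt with quartiles of 43 and 69 nt for the narrower peaks. Of the 554, 162 reached 150 nt, 49 reached 200 nt and 9 reached 300 nt, the widest being 541 nt. Because they are long, the wide peaks covered 78899 nt, or 34.0% of the 232344 nt in the list. These widths chose the peaks and are given as a description. At the limit the list ran on without a break, with 17 peaks of 99 nt just outside it and 19 peaks of 100 nt just inside. Of those that could be placed, 8 of 16 peaks of 99 nt and 9 of 18 peaks of 100 nt lay in the last 10% of a gene span. No neighbouring peaks of the same strand were closer than 21 nt, edge to edge.

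**Figure D1:**
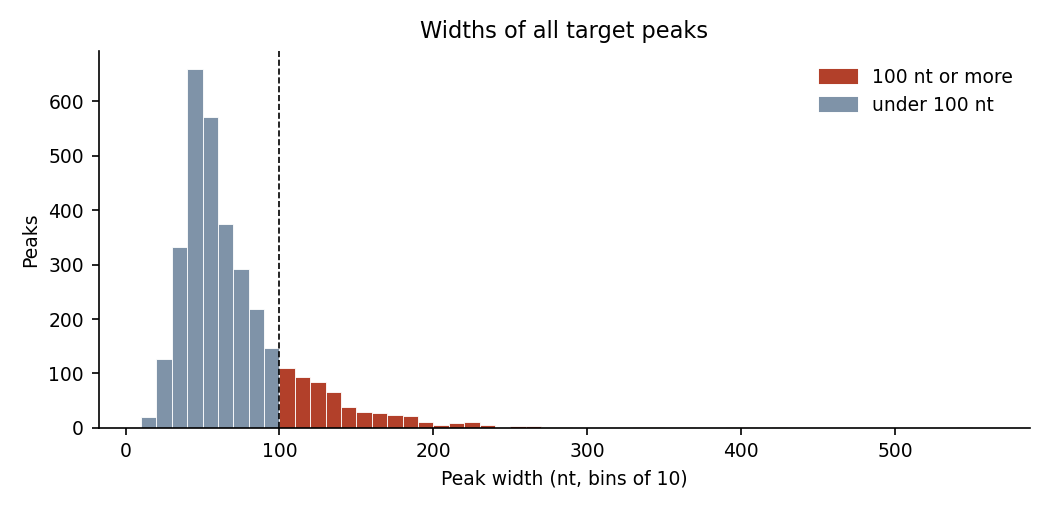
Number of peaks (vertical axis) by peak width in nt (horizontal axis, bins of 10 nt) for all 3292 peaks, with the dashed line at 100 nt. Red bars are the 554 wide peaks and grey bars the 2738 narrower ones; the distribution falls off without a gap at the line and reaches a single peak of 541 nt.

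The first comparison asked where along genes the wide peaks lay. Of the 554 wide peaks, 534 (96.4%, Clopper-Pearson interval 94.5 to 97.8) had their midpoint within exactly 1 protein-coding gene, against 2564 of 2738 narrower peaks (93.6%, interval 92.7 to 94.5). The difference of 2.74 percentage points (Newcombe interval 0.662 to 4.34) passed a two-sided Fisher's exact test with an adjusted p of 0.0118, where Benjamini-Hochberg adjustment ran over the 7 tests that set wide against narrower peaks. A further 13 wide peaks and 51 narrower peaks lay where several protein-coding genes overlap. In noncoding genes or pseudogenes only, there were 3 wide and 42 narrower peaks, and outside any annotated gene 4 wide and 81 narrower peaks.

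Wide peaks were concentrated at the downstream end of genes more strongly than narrower ones. Position was measured from the upstream to the downstream end of the gene span, read in the direction of the peak's strand. Over 411 genes, the 534 wide peaks had a median position of 91.8% (interval 90.1 to 93.5), against 81.3% (79.2 to 83.1) for 2536 narrower peaks in 1540 nuclear genes. The last 10% of the span held 291 wide peaks (54.5%, interval 50.2 to 58.8) and 983 narrower peaks (38.8%, interval 36.9 to 40.7). This difference of 15.7 percentage points (11.1 to 20.3) had an adjusted p of 2.08e-10 in Fisher's exact test. In the first 10% there were 5 wide peaks (0.936%, interval 0.305 to 2.17) and 104 narrower peaks (4.10%, interval 3.36 to 4.95), a difference of -3.16 points (-4.16 to -1.74) with an adjusted p of 0.000199 in the same exact test. That difference lost its call where only genes with exactly 1 peak were used, with 2 of 160 wide peaks and 42 of 953 narrower peaks (adjusted p = 0.0882, Fisher's exact test). At a limit of 150 nt the difference was -1.71 points and did not pass either (adjusted p = 0.434, Fisher's exact test). By width, 3 of the 5 were among the 48 peaks of 200 nt or more, a share of 6.25% (1.31 to 17.2) that is not below that of the narrower peaks. Between the ends, wide peaks had the lower share up to 70% of the span, with 3.93% of wide and 7.81% of narrower peaks at 50 to 60%, whereas at 80 to 90% the shares were 12.0% and 12.7%.

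**Figure D2:**
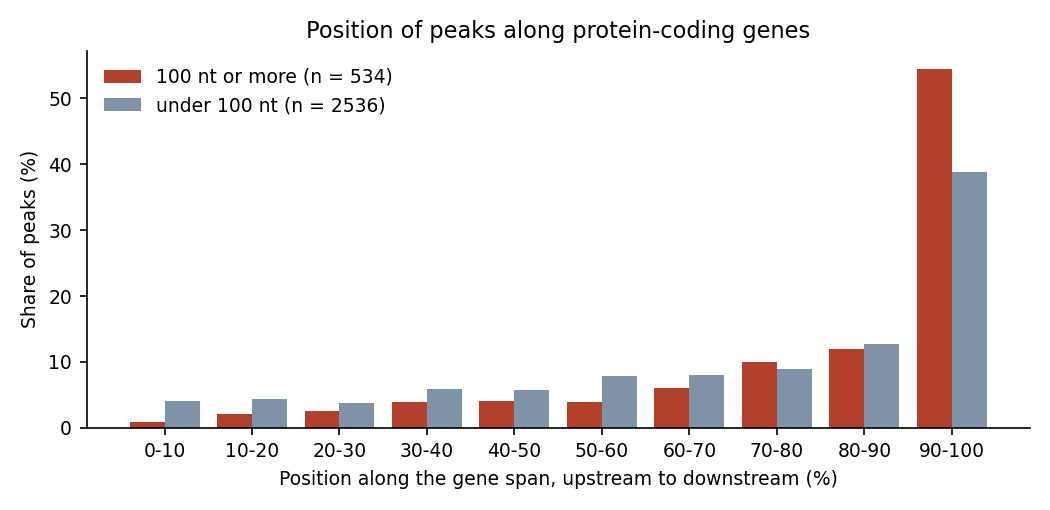
Share of peaks in percent (vertical axis) in each 10% of the gene span from the upstream to the downstream end (horizontal axis), for 534 wide peaks (red) and 2536 narrower peaks (grey). The last 10% holds 54.5% of the wide and 38.8% of the narrower peaks, while the wide bars are lower in every 10% of the upstream 70%.

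The same held in absolute distance. Wide peaks lay a median of 2415 nt from the downstream end (interval 2001 to 2870), against 4371 nt (3900 to 4889) for narrower peaks. Within 2000 nt of that end lay 243 wide peaks (45.5%, interval 41.2 to 49.8) and 860 narrower peaks (33.9%, interval 32.1 to 35.8), a difference of 11.6 points (7.02 to 16.2) with an adjusted p of 2.27e-06 in Fisher's exact test. In the final 500 nt the shares were 17.2% of wide and 13.4% of narrower peaks. Beyond 50000 nt from the end they were 5.06% and 11.0%. The length of the genes did not separate the kinds beyond its error, with a median span over peaks of 36863 nt (32244 to 43035) for wide and 39566 nt (36863 to 42791) for narrower peaks. Untranslated regions and exons were not used here, so a peak near the downstream end is not shown to lie in a 3' untranslated region.

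Split more finely by width, the share in the last 10% was 28.5% (24.2 to 33.1) for 418 peaks under 40 nt and 36.6% (32.7 to 40.5) for 610 peaks of 40 to 49 nt. It then stayed between 41.4% and 44.7% in the 5 classes from 50 to 99 nt. Among wide peaks it was 56.4% (49.1 to 63.5) for 195 peaks of 100 to 119 nt, 45.9% (38.5 to 53.4) for 183 of 120 to 149 nt, 60.2% (50.3 to 69.5) for 108 of 150 to 199 nt and 66.7% (51.6 to 79.6) for 48 of 200 nt or more. The class of 120 to 149 nt thus lay within the range of the narrower classes by its interval, and the step at 100 nt is not a clean one. Within 2000 nt of the end the shares were 26.1% (21.9 to 30.6) under 40 nt, 39.9% (32.7 to 47.4) at 120 to 149 nt and 58.3% (43.2 to 72.4) at 200 nt or more. The lowest shares were thus those of the shortest peaks. The interval of the class just below the limit, 44.7% (36.3 to 53.3) at 90 to 99 nt, overlaps that of all wide peaks.

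**Figure D3:**
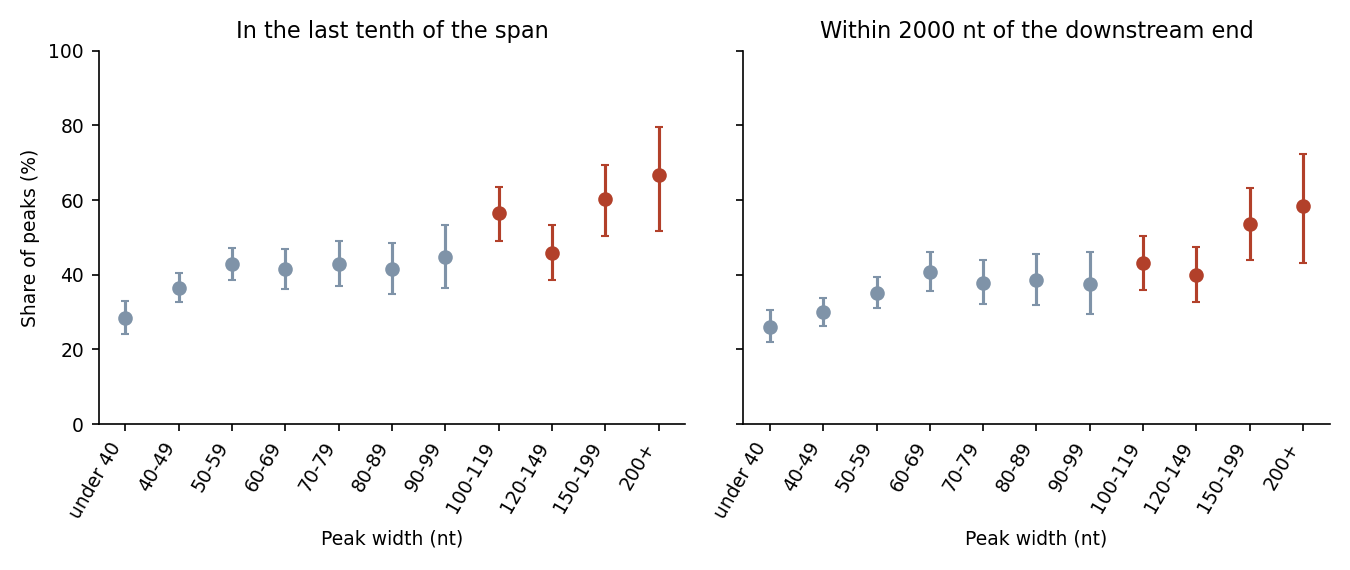
Share of peaks in percent (vertical axes) in the last 10% of the gene span (left) and within 2000 nt of its downstream end (right) by peak width in nt (horizontal axes), with exact 95% intervals as bars. Grey points are classes under 100 nt and red points classes of 100 nt or more; the lowest shares are at under 40 nt (28.5% and 26.1%) and the highest at 200 nt or more (66.7% and 58.3%).

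Peaks of 1 gene share its length, exon structure and abundance, so the contrast was repeated with genes as the unit. Among genes with exactly 1 peak, 96 of 160 wide peaks (60%, interval 52.0 to 67.7) and 385 of 953 narrower peaks (40.4%, interval 37.3 to 43.6) lay in the last 10% of the span, a difference of 19.6 points (11.2 to 27.5). Within 2000 nt of the end these genes had 91 wide (56.9%) and 354 narrower peaks (37.1%), a difference of 19.7 points (11.4 to 27.7). A further 235 genes held both kinds, and there the mean position of the wide peaks was nearer the downstream end than that of the narrower peaks in 144 genes (61.3%, interval 54.7 to 67.5). The two-sided exact sign test over these genes gave an adjusted p of 0.00116, and the median of the difference in position was 1.96 percentage points of the span. With narrower peaks under 70 nt only, the share was 56.9% and the exact sign test no longer passed (adjusted p = 0.0613). In the same 235 genes the most downstream peak was wide in 117 (49.8%, interval 43.2 to 56.4), beside a mean share of wide peaks per gene of 39.1%, which was not tested. Transcript abundance was not analysed here, and its part in peak width was not tested.

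The second comparison concerned the number of peaks per gene. At least 1 wide peak was found in 411 of the 1723 genes with a peak (23.9%), a share that the choice of width fixes. Of these 411 genes, 331 had 1 wide peak, 51 had 2, 19 had 3, 6 had 4 and 4 had 5, and 176 had no narrower peak. Among the 176, 160 had only 1 peak in all and 16 had at least 2 wide peaks. Wide peaks lay in genes with more peaks than narrower ones did, with a mean of 3.76 and a median of 3 peaks in the gene against 3.25 and 2. In genes with at least 2 peaks lay 374 of 534 wide peaks (70.0%, interval 66.0 to 73.9) and 1610 of 2564 narrower peaks (62.8%, interval 60.9 to 64.7). The difference of 7.24 points (2.82 to 11.4) had an adjusted p of 0.0021 in Fisher's exact test. All peaks of a gene share this value, yet the test and intervals count them as independent, so the p may be too small. No version with 1 value per gene was computed.

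Read the other way, the share of peaks that were wide was 14.4% (12.4 to 16.6) in 1114 genes with 1 peak, 16.2% (13.3 to 19.3) in genes with 2 peaks, 18.3% (15.5 to 21.4) with 3 to 4, 21.4% (17.9 to 25.3) with 5 to 9 and 22.9% (17.0 to 29.8) with 10 or more. Neighbouring classes overlap in their intervals, and the intervals treat peaks of 1 gene as independent. For close neighbours no difference passed the test. Another peak of the same strand lay within 100 nt of 90 wide peaks (16.2%) and of 417 narrower peaks (15.2%), a difference of 1.02 points (-2.15 to 4.56) with an adjusted p of 0.561 in Fisher's exact test. Within 500 nt the counts were 175 (31.6%, interval 27.7 to 35.6) and 674 (24.6%, interval 23.0 to 26.3), and this wider window passed the exact test (adjusted p = 0.0011). Peaks that are neighbours of each other share this value, yet the test counts them as independent, so that p may be too small. No version with 1 value per gene was computed for it.

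**Figure D4:**
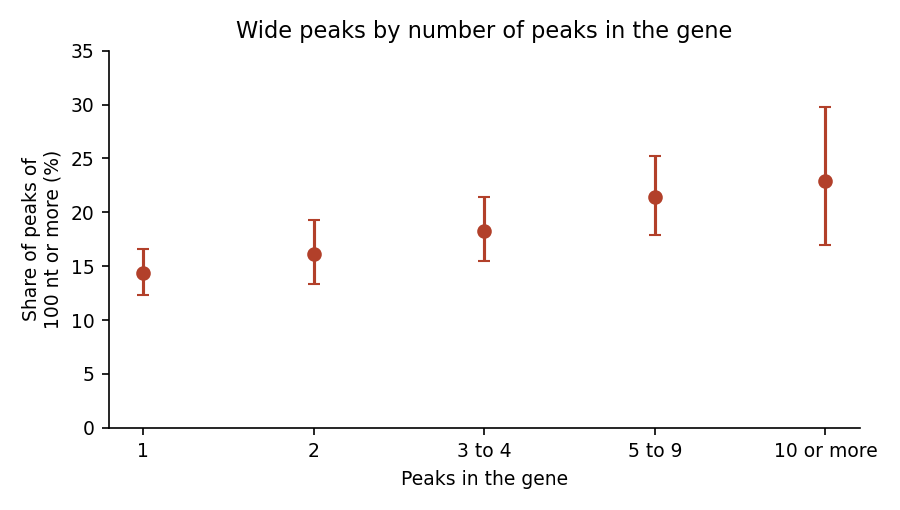
Share of peaks of 100 nt or more in percent (vertical axis) by the number of peaks in the gene (horizontal axis), with exact 95% intervals as bars, over 3098 peaks in 1723 protein-coding genes. The share is 14.4% in genes with 1 peak and 22.9% in genes with 10 or more, and neighbouring intervals overlap.

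In 10 genes at least 4 wide peaks were found, 44 in all. Of these, 24 (54.5%) lay in the last 10% of the span, the share over all wide peaks. Within 2000 nt of the end lay 9 of the 44, beside 45.5% of all wide peaks. Tet1, which encodes an enzyme that oxidises methylcytosine, had 5 wide peaks among 14 on chromosome 10 (gene span 62804570 to 62887469). They measured 218, 122, 368, 117 and 200 nt and lay 75407, 34820, 7313, 7046 and 288 nt from the downstream end, so that both ends of the gene carried one. Jarid2, whose product works with Polycomb repressive complex 2, had 5 among 13 on chromosome 13 (44730774 to 44921643), all between 110 and 131 nt. The first of them lay 166554 nt from the end and the last 538 nt. Mga, which encodes a MYC network repressor, had 5 among 11, between 108 and 152 nt wide and 46619 to 6223 nt from the end. The 3 Mga peaks nearest the end were all narrower ones of 79, 40 and 62 nt.

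Other genes of this group differed in where their wide peaks fell. Sec16a, a gene for a scaffold of endoplasmic reticulum exit sites, had 5 wide peaks among 6 on chromosome 2 (26409431 to 26446293), and 95.0% of its covered length was in them. The 3 most upstream, of 273, 112 and 336 nt, lay 32503 to 29509 nt from the end, in the upstream 20% of the span. Chd8, which encodes a chromatin remodeller, had 4 peaks, all wide, at 39209, 37179, 19622 and 14514 nt from the end, and none in the last 10%. By contrast, all 4 wide peaks of Akap12, a gene for a kinase anchoring protein, lay within 3683 nt of the end. Its narrower peaks lay there as well, with all 12 peaks of the gene within 3802 nt. Plxna1, which encodes a semaphorin receptor, had 4 among 8, including the widest peak of the list, 541 nt on chromosome 6 (89316958 to 89317498) and 915 nt from the end. Lifr, the gene of the LIF receptor, had 4 among 9, and 3 of them lay in the last 10% at 2598, 2428 and 140 nt. The ubiquitin ligase gene Huwe1 had 4 among 13, between 126 and 174 nt wide, and the tankyrase gene Tnks2 had 4 among 9, between 122 and 160 nt.

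**Figure D5:**
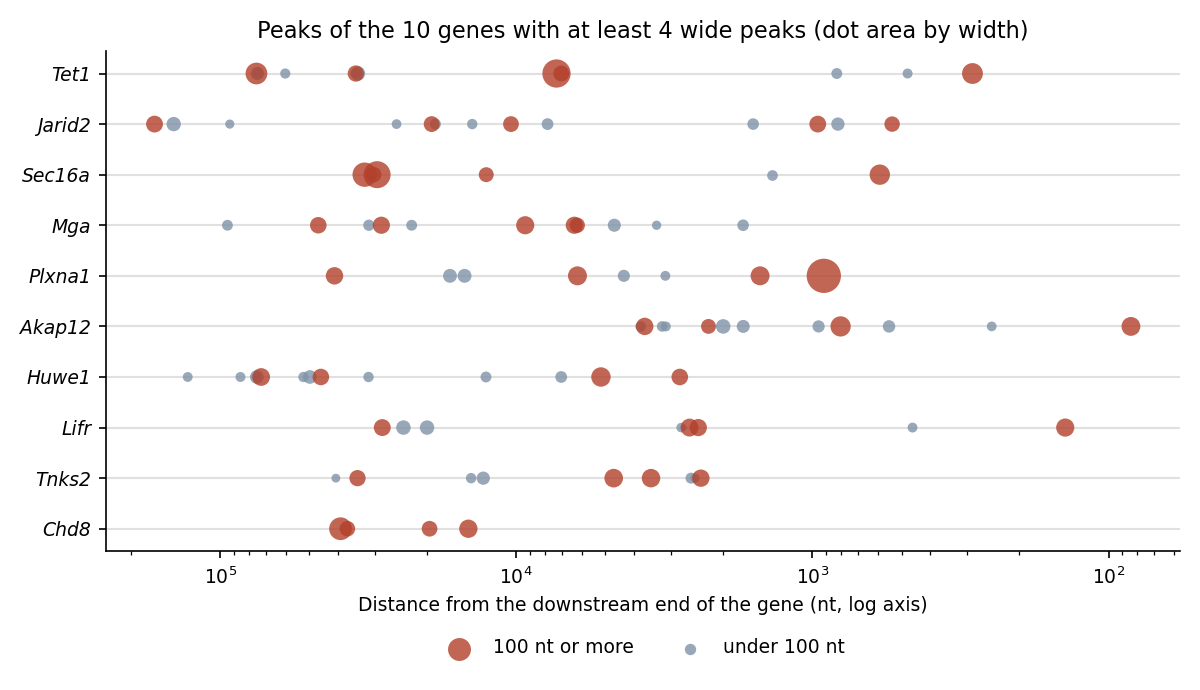
Peaks of the 10 genes with at least 4 wide peaks, by distance from the downstream end of the gene in nt (horizontal log axis, downstream end to the right), with dot area proportional to peak width, red for wide and grey for narrower peaks. Akap12 has all 12 of its peaks, wide and narrower, within 3802 nt of the end, whereas the 4 peaks of Chd8 lie between 39209 and 14514 nt.

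The 20 widest peaks, from 541 down to 238 nt, fell in 19 genes, and 10 of them lay in the last 10% of the span, also 10 within 2000 nt of the end, and none in the first 10%. Over all wide peaks these shares were 54.5%, 45.5% and 0.936%. A peak of Pdia4 tied with the last of the 20 at 238 nt. After Plxna1 came Mki67, the gene of a proliferation antigen, with 428 nt on chromosome 7 (135697462 to 135697889) at 70.4% of the span. Spry4, which encodes an inhibitor of receptor tyrosine kinase signalling, followed with 401 nt at 73.0%, and Ankrd11, which encodes a chromatin regulator, with 397 nt at 99.6%. Slc6a6, the taurine transporter gene, and Tet1 had 368 nt each, at 98.5% and 91.2%. The peak of Ctnnb1, the gene of beta-catenin, had 340 nt on chromosome 9 (120955329 to 120955668), 5009 nt from the end, and a second wide peak of 108 nt followed it at 4639 nt. Sec16a gave 336 and 273 nt, and Plekhm1, a gene of lysosome fusion, 334 nt at 97.2%.

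The remaining 10 of the 20 ran from 281 to 238 nt. Gabarap, an autophagy gene, had its only peak there, 281 nt wide and 201 nt from the end of a span of 3580 nt. Rrm2, which encodes a subunit of ribonucleotide reductase, had 272 nt at 89.9%, the WNT receptor gene Fzd5 268 nt at 31.6%, and the transcription factor gene Nfe2l1 264 nt at 94.4%. Arid1a, of the SWI/SNF remodelling complex, had 262 nt at 80.9%, Atf6b, of the unfolded protein response, 259 nt at 95.2%, and Ei24 256 nt at 94.6%. Mdn1, a gene of ribosome assembly, had 250 nt at 99.3%, while Chd8 and Dido1 had 239 and 238 nt in the interior, at 34.5% and 67.0%. The widest peaks thus included both gene ends and gene interiors.

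Gene groups were described by how many of their members with a peak held a wide one, beside 23.9% over all genes with a peak, and by the share of their peaks that were wide, beside 534 of 3098 (17.2%) over all such genes. A gene with more peaks has more chances to hold a wide one, so that the share of peaks is the closer comparison, and no list was tested. That share is not free of the number of peaks either, since it was 14.4% in genes with 1 peak and 22.9% with 10 or more. Over all listed genes, 72 of 164 with a peak (43.9%) held a wide one, and 119 of 573 peaks (20.8%) were wide. Of 17 chromatin and DNA methylation genes with a peak, 12 held a wide one, and 28 of their 100 peaks were wide. Besides Tet1, Mga, Jarid2 and Arid1a, the methyltransferase gene Nsd1 had 3 wide peaks of 189, 105 and 124 nt, between 2931 and 1901 nt from the end. Suz12, a core gene of Polycomb repressive complex 2, had 1 of 131 nt that lay 167 nt from the end.

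Among 25 signalling genes with a peak, 12 held a wide one, and 18 of 67 peaks (26.9%) were wide. Members of the LIF pathway stood among them. Il6st, which encodes the gp130 subunit that pairs with the LIF receptor, had 3 wide peaks among 9, of 108, 228 and 163 nt, at 2741, 2451 and 1861 nt from the end. Socs3, a gene for a feedback inhibitor of that pathway, had its single peak there, 176 nt wide and 100 nt from the end. Nodal, a TGF-beta family ligand, had 1 peak of 110 nt at 55 nt from the end, and Acvr2b, a gene for an activin receptor, 1 of 137 nt at 6938 nt.

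Of 19 pluripotency genes with a peak, 7 held a wide one, and 11 of 64 peaks (17.2%) were wide, the share over all genes. Sox2, a core pluripotency factor gene, had a single peak of 125 nt, 64 nt from the downstream end. Klf2 had 2 wide peaks of 122 and 130 nt, Rif1 2 with the wider at 126 nt, and the zinc finger gene Sall1 3 among 16, at 4720, 2775 and 1184 nt. Fgf4, with 11 peaks, had 1 just above the limit, 140 nt from the end, and Tdgf1 and Gli2 had 1 each of 132 and 100 nt. Among stem cell markers 8 of 11 genes had a peak of any width and 3 had a wide one. None of the 16 listed markers of endoderm, mesoderm, neural, trophoblast or fibroblast cells had any peak, where 7.87% of all annotated protein-coding genes had one. So few genes cannot show a share below that one, and no test was made.

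Matrix and integrin genes held wide peaks in 6 of 11 members with a peak, 10 of 45 peaks (22.2%), and 9 of the 10 lay within 2000 nt of the end, beside 45.5% of all wide peaks. In the last 10% of the span lay 9 of these 10 wide peaks and 8 of the 35 narrower peaks of all 11 members with a peak. Members without a wide peak are thus counted too, and most of those narrower peaks were in Fn1 alone. Agrn, which encodes the proteoglycan agrin, had 3 peaks, all wide, at 877, 714 and 150 nt. The integrin genes Itga5 and Itga6 had 1 each, of 169 and 136 nt, at 840 and 1254 nt, the laminin gene Lamc1 had 2, of 105 and 100 nt, and the nidogen gene Nid1 had 1 of 104 nt at 450 nt. Fn1, the fibronectin gene with 23 peaks, had only 2 wide ones, of 117 nt at 753 nt and of 199 nt at 38705 nt from the end. In ubiquitin ligase genes the order differed, since 6 of 11 held a wide peak and 11 of 50 peaks (22.0%) were wide, but only 1 lay within 2000 nt of the end and their median position was 66.1%. The narrower peaks of all 11 members with a peak were also mostly interior, with 3 of 11 wide and 6 of 39 narrower peaks in the last 10%. Ubr4 had 2 at 25.1% and 51.0% of its span. The deubiquitinase gene Usp9x, which is no ligase gene but is counted in this list, had 1 at 26.9%. Nedd4 had 2 among 10, of 121 nt at 23379 nt and 132 nt at 1832 nt from the end, Trip12 1 of 131 nt at 39666 nt and Birc6 its only peak, of 103 nt, at 123174 nt. The difference between these lists was not tested.

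Cell cycle and apoptosis genes had 7 wide peaks among 26 (26.9%) in 6 of 12 members with a peak. Mdm4, a gene for an inhibitor of p53, had 222 nt at 2036 nt from the end, and Mcl1, an antiapoptotic gene, 2 of 104 and 171 nt at 1282 and 571 nt. The cyclin gene Ccne1, the cell cycle inhibitor gene Cdkn1b and the kinase gene Lats1 each had their only peak in this class, at 125, 118 and 133 nt. In the list of miR-290/miR-302 targets, 3 of 8 genes with a peak held a wide one and 5 of 24 peaks (20.8%) were wide. Of the 19 narrower peaks of all 8 genes with a peak, 13 lay in the last 10% of the span. All 5 wide peaks lay there and within 2000 nt of the end. Ei24 had 3 of them, of 256, 141 and 189 nt at 989, 758 and 145 nt, while Arid4b had 116 nt at 1894 nt and Wee1 107 nt at 649 nt.

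Genes of the miRNA pathway had 6 wide peaks among 37 (16.2%), in 4 of 12 members with a peak. Tnrc6a, whose product links Argonaute to silencing factors, had 3 of 103, 122 and 185 nt at 25293, 24880 and 1729 nt from the end. Tnrc6c, of the same family, had 1 of 157 nt at 41011 nt, and Cnot1, which encodes the scaffold of the CCR4-NOT deadenylase, 1 of 181 nt at 11596 nt. Ago2 had 1 of 111 nt, 44857 nt from the end, among 6 peaks. Of splicing and RNA helicase genes 6 of 13 held a wide peak, 6 of 46 peaks (13.0%), led by the helicase gene Ddx5 with 186 nt and Dhx9 with 155 nt, while Ddx3x had 134 nt, Prpf8 126 nt, Son 103 nt and Srrm2, with 15 peaks, 1 of 112 nt. Genes of membrane traffic and the cytoskeleton held wide peaks in 7 of 14, 13 of 55 peaks (23.6%), among them Actb, the beta-actin gene, with 219 nt at 121 nt from the end. Besides Akap12, the widest were 158 nt in Dst, 139 nt in Lamp2, which had 3 among 10 peaks, 128 nt in the dynein gene Dync1h1 and 125 nt in the spectrin gene Sptbn1. Translation genes had 5 of 34 (14.7%) in 4 of 13, namely Larp1 with 142 and 107 nt, the helicase gene Eif4a1 with 140 nt, and the elongation factor genes Eef2 with 116 nt and Eef1a1 with 100 nt.

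Some gene families had few wide peaks or none. None of the 15 listed ribosomal protein genes with a peak had a wide one among their 42 peaks. Taken over all ribosomal protein genes by symbol, a grouping made after the values were seen, 4 of 119 peaks (3.36%, Clopper-Pearson interval 0.923 to 8.38) in 56 genes were wide. They lay in Rps10 with 152 nt, Rps25 with 128 nt, Rpl9 with 116 nt and Rps20 with 102 nt, and ribosomal protein genes have near-identical pseudogenes, so the placement of reads is uncertain. Histone genes had 0 of 31, with the widest at 99 nt, which allows a share of up to 9.68% by a limit of 3 counts and 11.2% by the Clopper-Pearson interval. Mitochondrially encoded genes had 0 of 28, which allows up to 10.7% and 12.3% by the same measures, with a median width of 41.5 nt and a widest peak of 94 nt. Zfp zinc finger genes, grouped in the same way, had 19 wide peaks among 68 (27.9%, interval 17.7 to 40.1) in 16 of 41 genes. The limits and intervals cover counting error only, and no test was made between these groups.

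A few wide peaks lay far from the downstream end. The 5 in the first 10% of the span belonged to Cdk12, a kinase gene of transcription elongation, with 136 nt at 1.78% of the span, the kinesin gene Kif14 with 231 nt at 2.08%, Trim8 with 132 nt at 6.31%, the transcription factor gene Sp1 with 220 nt at 8.62% and Tet1 with 218 nt at 9.04%. Kif14 and Trim8 had no other peak. In nt, the most distant were a peak of 100 nt in Pola1, the DNA polymerase alpha gene, at 246255 nt from the end, and 2 of 100 and 103 nt in Trps1 at 191583 and 167901 nt. These genes were chosen after their values were seen.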

How the data were processed

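The peak list was deposited by the authors as start, end, name, a score and strand per peak, on the mm10 build per the submitters' processing notes. The deposited score was 0 for every peak, so peaks could not be ranked by signal. Not given in the sources used here are the peak caller, its threshold, how input served and whether neighbouring peaks were merged, and each could change widths. The miRNA tables were not used. Depth per library is unknown from the list.

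Peaks were assigned by midpoint to protein-coding gene spans from RefSeq (GRCm38.p6, the assembly of mm10). Those spans carry no exons. Gene strand, taken from a RefSeq table of promoters where it gave 1 strand, was used only in an alternative. Coordinates count from 1. Shares have exact Clopper-Pearson intervals, differences Newcombe intervals, and medians order-statistic intervals, all at 95%. For a count of 0 in the gene families by symbol and on the opposite strand, the limit of 3 counts of the total is also given. Wide and narrower peaks were compared with two-sided Fisher's exact tests and an exact sign test over genes, Benjamini-Hochberg adjusted over 7 tests at 0.05. These compare peaks of 1 list, not conditions. Steps were tested on simulated data. Python 3.11.15, scipy 1.17.1 and pandas 2.3.3 were used.

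The members and lists were chosen with earlier results of these data known. Named were the 20 widest peaks, genes with at least 4 wide peaks, and up to 6 genes per list by widest peak. Genes outside this rule (Gli2, Suz12, Nodal, families by symbol, peaks far upstream, wide-only genes and those outside coding genes) were chosen after their values were seen, and 1 gene that the rule names is not reported here. Alternatives changed the width limit, the peak point, the gene set, the assignment, the windows and the merging of neighbours.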

Additional observations from a re-analysis of the deposited data

How the results depend on the processing

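Of 88 recomputed values, 77 kept their direction and their side of the threshold, or stayed within the interval or 1.5 times of the reported value. The differences between wide and narrower peaks in the last 10% of the span ranged from 13.4 to 21.8 points, those within 2000 nt of the end from 7.29 to 20.2 and those in genes with several peaks from 5.12 to 14.9, all past the test wherever one was run. With 1 value per gene, which had no test, the first 2 were 16.0 and 13.2 points. The difference in genes with several peaks was not computed in that way, and its tests count peaks of 1 gene as independent. An alternative chosen after seeing the data, without peaks that have another within 100 nt, gave 14.9 and 12.7 points. At a limit of 150 nt the difference in the first 10% was -1.71 points and that inside exactly 1 protein-coding gene 2.30 points, neither past the test with fewer wide peaks, while the median position was 94.5%, 14 genes had at least 2 wide peaks and 26 listed genes had one. At 120 nt, 44 genes had at least 2. In genes with exactly 1 peak the difference in the first 10% was -3.16 points and did not pass. With narrower peaks under 70 nt only, the sign test share was 56.9% and the difference for another peak within 100 nt was -0.029 points. That difference was -0.33 at a limit of 90 nt. With a gap of 500 nt it was 6.97 points, past a test that counts neighbouring peaks as independent. The cause was not tested. No paired analysis was possible because the list has no column per library, and for the same reason no replicate could be left out. Without read numbers per peak, what depth limits is unknown.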

Other observations

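Where the promoter table gave the strand of the gene, none of 439 wide peaks lay on the opposite strand, which allows a share of up to 0.683% by a limit of 3 counts and 0.837% by the Clopper-Pearson interval, against 24 of 2025 narrower peaks (1.19%, Clopper-Pearson interval 0.761 to 1.76). The Clopper-Pearson intervals overlap, which alone does not decide whether the shares differ. This comparison was made after the values were seen and was not tested. By strand of the genome, 292 wide peaks were on plus and 262 on minus, against 1411 and 1327 narrower peaks.

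Outside single protein-coding genes, the 3 wide peaks in noncoding genes were in Meg3 (chromosome 12), the maternally expressed RNA of the Dlk1-Dio3 region, in Rian (133 nt) of the same region, and in Lncenc1 (125 nt on chromosome 13), a noncoding RNA of embryonic stem cells. Of the 4 outside any annotated gene, 2 lay close together on chromosome 4, from 132492211 to 132492383 and from 132492701 to 132492867. Genes with at least 2 wide peaks and no narrower one numbered 16. Besides Chd8 and Agrn these included Fem1b, Slc7a3 and Tmem87b with 3 each, and Scd2, a stearoyl-CoA desaturase gene, with 2 of up to 214 nt. Over the autosomes and X, wide peaks were between 10.5% of the 86 peaks of chromosome 16 and 24.0% of the 96 peaks of chromosome 14, with overlapping intervals of 4.90 to 18.9 and 15.8 to 33.7, while the 29 peaks of the mitochondrial chromosome and the 2 of Y held none.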
